A study of Mus musculus with 8 samples.

Results

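Genes of pigment cells were followed in hair follicle cells of mice that lacked Bmpr1a, a receptor for bone morphogenetic proteins. The set held 9 genes, taken by symbol from the 20026 gene symbols found in all 3 expression tables of the series: Dct, Tyr, Tyrp1, Mlana, Gpnmb, Mitf, Sox10, Kit and Ednrb. Each had 1 row in each table. RNA was sequenced in 8 libraries of mice of mixed strain. Bulge stem cells (HFSC) were taken at postnatal day 68 from K15-CrePGR;Bmpr1a cKO mice and from mice labelled Het, with 1 library each. Transit-amplifying cells (TACs, the dividing progenitors of the hair bulb) were taken at day 68 from Shh-CreER;Bmpr1a cKO and Het mice, again with 1 library each. TACs from hair bulbs of K15-CrePGR;Bmpr1a mice were taken at day 80 from KO samples 64 and 84 and WT samples 52 and 57. The design text gives the deleted genotype as Bmpr1a fl/fl with the Cre driver. K15-CrePGR is a hormone-dependent Cre under a keratin promoter of bulge epithelium, and Shh-CreER a hormone-dependent Cre under the control of Shh, which is expressed in hair matrix epithelium. Neither driver is one of pigment cells. The inducing agent, the coat colour of the mice and the stage of the hair cycle are not given in the labels.

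Melanocytes arise from the neural crest, live among the epithelial cells of the follicle and pass pigment to the growing hair shaft. Their stem cells lie near the bulge, and mature melanocytes sit in the hair bulb. Mitf is the transcription factor that drives the melanocyte programme. Tyr, Tyrp1 and Dct encode the related enzymes that make melanin, Mlana and Gpnmb encode proteins of the melanosome, the organelle that holds it, Sox10 acts upstream of Mitf, and Kit and Ednrb are receptors for ligands made by surrounding cells. Several of these genes are also used outside pigment cells: Sox10 in Schwann cells, Kit and Mitf in mast cells, Gpnmb in macrophages and Ednrb in endothelial cells. In such samples fewer cells of a type and less RNA per cell cannot be told apart.

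Expression was given as FPKM, which corrects fragment numbers for the length of the transcript and the size of the library, so levels of different genes within a library can be compared. Each of the 3 tables has its own normalization, and a deleted library was set against controls of its own table. From the steps between low FPKM values, depth came to about 47300000 (cKO) and 55600000 (Het) reads in HFSCs and to 28600000 (cKO) and 28500000 (Het) reads in Shh-CreER TACs. For K15-CrePGR TACs only relative depths could be estimated, and weakly, at 1.08 (KO 64), 0.911 (KO 84) and 1.13 (WT 57) times that of WT 52. These rest on the 161 of 2784, 137 of 2850 and 198 of 3576 low loci that share the ratio. Among low members with a read estimate, Tyr rested on about 172 reads in cKO and 19 in Het HFSCs. Sox10 rested on about 101 in cKO and 47 in Het HFSCs, and on about 26 in cKO and 20 in Het Shh-CreER TACs. Mlana, Kit and Ednrb were lower than Sox10 in Het HFSCs and had no read estimate, nor had Mitf. Bmpr1a as a whole gene lay between 31.8 and 46.0 FPKM in all 8 libraries, which does not check a deletion of part of the gene. The X-inactivation transcript Xist stood at 3.98 FPKM in cKO and 68.9 FPKM in Het HFSCs, and at 210 (KO 64), 226 (KO 84), 3.26 (WT 52) and 175 FPKM (WT 57) in K15-CrePGR TACs, so the sex of the mice was not matched across the libraries of these comparisons.

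The loci, in mm9 as listed in the K15-CrePGR TAC table, were chromosome 14, 118412013 to 118451468 for Dct, chromosome 7, 94574909 to 94641943 for Tyr and chromosome 4, 80480026 to 80497623 for Tyrp1. Mlana lay on chromosome 19, 29772410 to 29782938, and Gpnmb on chromosome 6, 48986516 to 49020928. Mitf lay on chromosome 6, 97757040 to 97971352, and Sox10 on chromosome 15, 78985342 to 78994920. The receptor genes lay on chromosome 5, 75970940 to 76052747 (Kit) and chromosome 14, 104213834 to 104243492 (Ednrb).

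Promoter sequences are shown for the genes of the melanin enzymes, because these 3 genes had similar ratios between genotypes in HFSCs and unlike ones in Shh-CreER TACs. MITF binds E-boxes, and the form TCATGTG is its known site in promoters of this enzyme family. RefSeq (GRCm38.p6) gave windows of 250 bases before and 50 after an annotated start for 7 of the 9 genes (not for Mlana and Sox10), 10 windows in all. The sequences run 5′ to 3′ along the gene's strand, and the capitals mark TCATGTG or, on the other strand, CACATGA. The windows are chr14:118052197-118052496 on the minus strand for Dct, chr7:87493463-87493762 on the minus strand for Tyr and chr4:80833963-80834262 on the plus strand for Tyrp1.
Dct: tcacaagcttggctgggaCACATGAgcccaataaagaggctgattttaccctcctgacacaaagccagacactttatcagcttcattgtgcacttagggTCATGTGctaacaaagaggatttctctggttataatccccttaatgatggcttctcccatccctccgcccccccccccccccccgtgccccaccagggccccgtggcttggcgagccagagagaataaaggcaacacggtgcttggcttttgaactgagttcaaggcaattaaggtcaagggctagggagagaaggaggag
Tyr: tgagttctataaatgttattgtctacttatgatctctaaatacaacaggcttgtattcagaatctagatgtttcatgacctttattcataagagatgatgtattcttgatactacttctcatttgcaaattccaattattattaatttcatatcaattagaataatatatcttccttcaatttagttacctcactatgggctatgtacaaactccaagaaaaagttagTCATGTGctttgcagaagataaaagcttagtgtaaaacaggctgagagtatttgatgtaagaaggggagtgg
Tyrp1: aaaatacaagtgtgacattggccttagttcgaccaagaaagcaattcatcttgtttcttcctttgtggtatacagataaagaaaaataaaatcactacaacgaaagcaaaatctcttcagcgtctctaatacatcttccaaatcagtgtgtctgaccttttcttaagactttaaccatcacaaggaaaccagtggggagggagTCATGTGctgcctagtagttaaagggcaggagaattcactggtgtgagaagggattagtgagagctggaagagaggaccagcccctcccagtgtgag

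TCATGTG was found, on either strand, in the windows of these 3 genes and in none of those of Gpnmb, Mitf, Kit and Ednrb. It began 151 bases before the start in Dct, 22 bases before it in Tyr and 47 bases before it in Tyrp1, and Dct held a further match on the other strand, 232 bases before the start. Of all 32851 promoter windows of this length, 1239 (3.77%) held TCATGTG. The shorter CATGTG, which lies within it, was in 14.2% of windows and in the same 3 genes, while CACGTG (7.15% of windows) and TCACGTG (3.77%), which holds CACGTG, were in none of the 7. A match describes these letters only and is not a measured binding site.

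**Figure D1:**
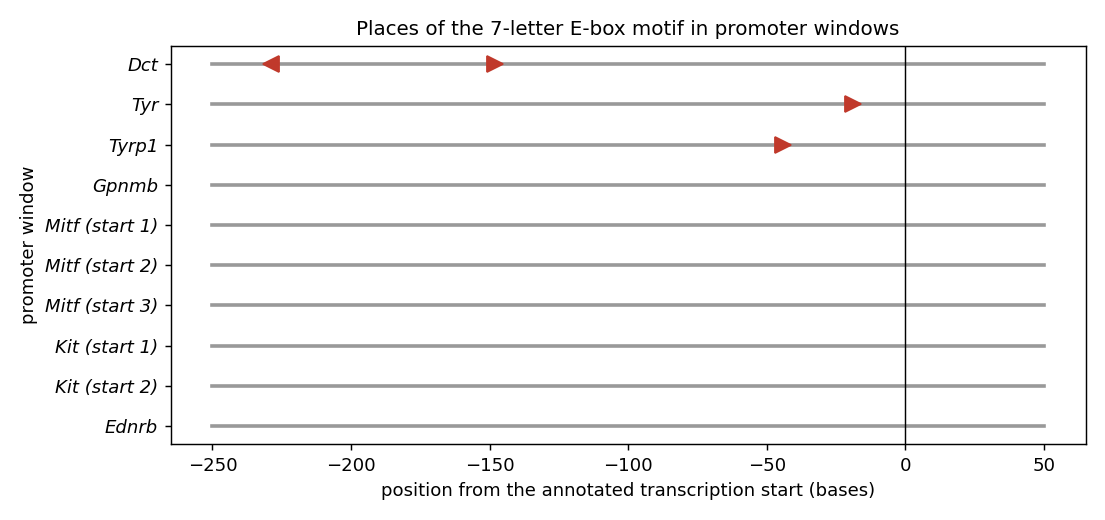
Places of TCATGTG in promoter windows of 7 pigment cell genes. The x axis gives the position from the annotated start in bases, each grey line is 1 window, and arrowheads give the match and its strand (right, the gene's strand). Matches stand in the windows of Dct (2), Tyr (1) and Tyrp1 (1), and the windows of the other 4 genes show none.

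In bulge stem cells, 8 of the 9 genes were higher in the cKO library than in the Het library, and Mitf alone was lower. The melanin enzyme genes and Mlana differed most. With 1 library of each genotype, these are differences between libraries without a replicate check. Dct, which converts dopachrome in melanin synthesis, stood at 21.2 FPKM in cKO and 2.59 FPKM in Het HFSCs, a ratio of 8.17. Tyrp1, which stabilises tyrosinase and acts late in the pathway, had 5.03 FPKM in cKO and 0.483 FPKM in Het HFSCs, a ratio of 10.4. Tyr, the rate-limiting enzyme, was at 0.601 FPKM in cKO and 0.0564 FPKM in Het HFSCs, a ratio of 10.7 whose lower value rested on about 19 reads. The melanosome protein gene Mlana had 2.13 FPKM in cKO and 0.271 FPKM in Het HFSCs, a ratio of 7.86 whose lower value has no read estimate. These 4 genes thus shared ratios between 7.86 and 10.7. Gpnmb, a melanosome glycoprotein gene, differed least, with 3.65 FPKM in cKO and 2.61 FPKM in Het HFSCs.

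The receptors and Sox10 stayed below 1 FPKM in both HFSC libraries. Sox10 was at 0.790 FPKM in cKO and 0.311 FPKM in Het HFSCs. Kit, the receptor for Kit ligand, was at 0.653 FPKM in cKO and 0.294 FPKM in Het HFSCs. Ednrb, the endothelin B receptor, was at 0.542 FPKM in cKO and 0.225 FPKM in Het HFSCs. These ratios, 2.54, 2.22 and 2.41, were smaller than those of the enzymes. Mitf went the other way, with 6.06 FPKM in cKO and 26.2 FPKM in Het HFSCs, 4.33-fold lower in cKO. In the Het library Mitf was the highest of the 9 genes and Dct stood at 0.0988 times its level, whereas in the cKO library Dct was the highest and stood at 3.49 times the level of Mitf. A whole-gene value does not separate the transcripts that start at the several Mitf promoters.

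Counting needed a mean FPKM of 1 or more over the libraries of a table, and differences were taken on log2(FPKM + 1). By this rule 5 of the 9 genes could be called in HFSCs. Dct (2.63), Tyrp1 (2.02) and Mlana (1.30) were at least 2-fold higher in cKO, which 5.92% of 12205 entries were, and Mitf (-1.95) at least 2-fold lower, which 4.6% were. Tyrp1 and Mlana reached that mean only through the cKO library, so their counting is no support. Without a pseudocount, 7 of the 9 had a ratio of at least 2, which 12.4% of 16468 entries did, and 1 was at most 0.5, which 10.2% were; this count was added after the data were seen. On the log2(FPKM + 1) scale the median difference was 0.45 over all 9 genes, 4 of which lay below the mean of 1 FPKM. Over the 12205 entries past that mean it was 0.05, so the 2 medians cover unlike sets. A pseudocount of 5 left Dct alone among the higher genes past 2-fold, with Tyrp1 at 0.87 and Mlana at 0.44.

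**Figure D2:**
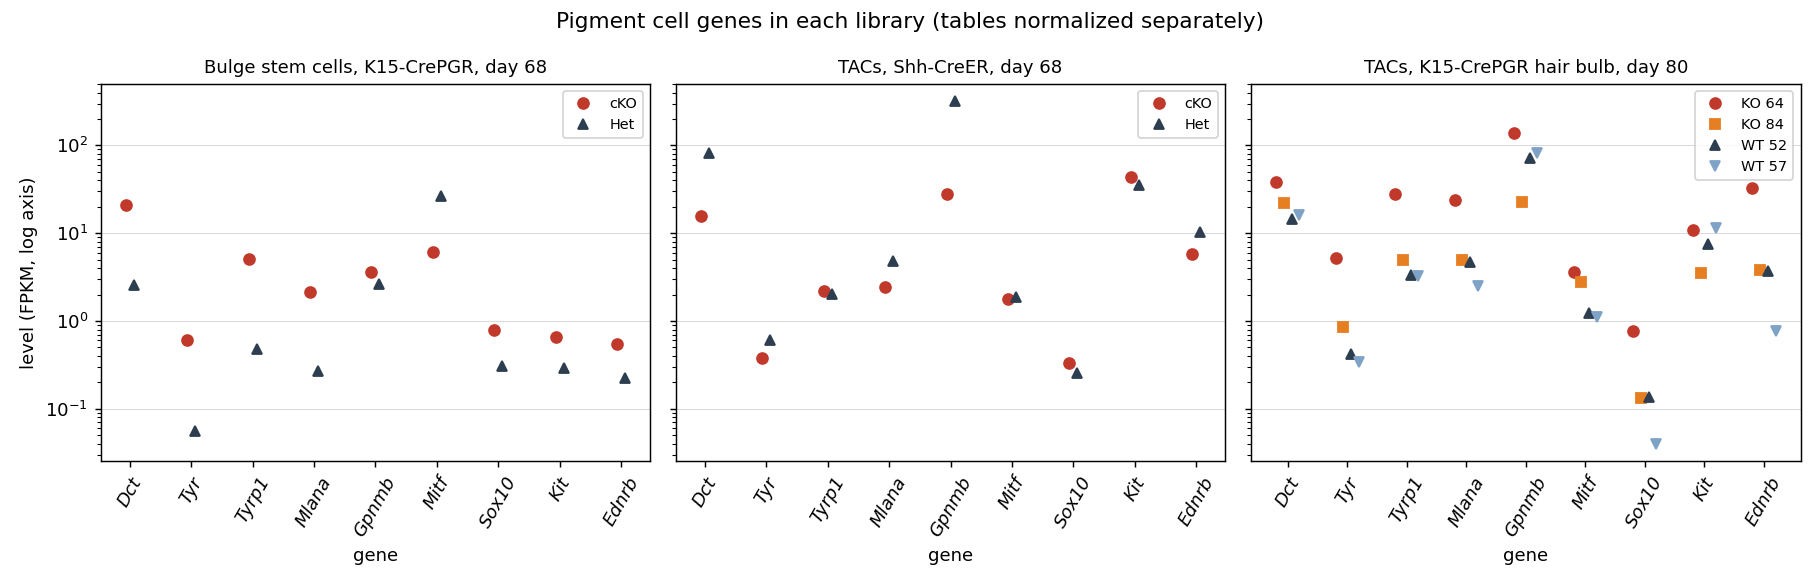
Levels of the 9 pigment cell genes in every library. The y axis is FPKM on a log scale, each point is 1 library, and the 3 panels are the separately normalized tables. In HFSCs the cKO points lie above the Het points except for Mitf; in Shh-CreER TACs Dct and Gpnmb lie lower in cKO; in K15-CrePGR TACs KO 64 is the highest library for every gene except Kit.

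Other pigment cell genes of the HFSC libraries were looked at through a list of 27 genes of melanosome structure, ion transport and traffic. Of its 20 members past the mean of 1 FPKM, 1 was at least 2-fold higher in cKO (5.92% of all entries) and none lower (4.6%). That gene was Pmel, which forms the fibrils of the melanosome, with 8.24 FPKM in cKO and 1.62 FPKM in Het HFSCs (log2 difference 1.82). The motor gene Myo5a had 8.74 FPKM in cKO and 5.26 FPKM in Het HFSCs, and Rab27a, which tethers melanosomes, 3.25 FPKM in cKO and 5.82 FPKM in Het HFSCs. The list median, over all 27 genes, was 0.03, close to that of the entries past the mean. Most members of the list serve lysosome-related organelles in many cell types. Among lineage transcription factors, 6 of 11 were found by symbol, and none of the 2 past the mean differed 2-fold. Tfap2a, Tfap2b, Tfe3, Tfeb and Tfec were found in K15-CrePGR TACs only and may stand under other symbols here, so this count covers part of the list. Pax3, which acts upstream of Mitf, was at 0.662 FPKM in cKO and 0.291 FPKM in Het HFSCs.

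Markers of the non-epithelial cells that also use these genes were low in the HFSC libraries. The 8 mast cell markers summed to 0.203 FPKM in cKO and 0.719 FPKM in Het HFSCs, with Tpsab1, Fcer1a and Ms4a2 listed at 0 in both. The 10 macrophage markers summed to 5.42 FPKM in cKO and 9.07 FPKM in Het HFSCs, and the 8 endothelial markers to 4.08 FPKM in cKO and 1.46 FPKM in Het HFSCs. Of 12 Schwann cell markers, 7 had a higher value in cKO and 2 of the 7 past the mean were at least 2-fold higher, S100b (3.15 FPKM in cKO and 0.293 FPKM in Het) and Ngfr (8.45 FPKM in cKO and 2.65 FPKM in Het), against 5.92% of all entries. S100b passed the mean only through the cKO library. The Schwann list, which is led by genes that keratinocytes also use, summed to 119 FPKM in cKO and 91.6 FPKM in Het HFSCs. The part of these markers in the result was not tested. All 8 genes listed as bulge markers stood above 30 FPKM in both libraries, led by Krt15 at 3075 FPKM in cKO and 7834 FPKM in Het HFSCs. One of them, Tcf3, was also at 55.5 FPKM in cKO and 50.1 FPKM in Het Shh-CreER TACs, so it may not mark the bulge. The 8 bulge markers did not differ one way. Krt15, Cd34 and Krt24 were at least 2-fold lower in cKO, as were 4.6% of all entries. Sox9 was at least 2-fold higher (120 FPKM in cKO and 59.4 FPKM in Het), as were 5.92%, and the other 4 differed less. Most hair matrix and shaft markers were also higher in cKO beside the pigment cell genes. They summed to 57.6 FPKM in cKO and 21.1 FPKM in Het HFSCs, with a median difference of 1.21 over all 9. Of the 7 past the mean, 5 were at least 2-fold higher (5.92% of all entries) and 1 lower (4.6%). Of these 5, Krt35 (5.18 FPKM in cKO and 0.141 FPKM in Het), Krt85 (5.07 FPKM in cKO and 0.0242 FPKM in Het) and Krt31 (2.04 FPKM in cKO and 0.314 FPKM in Het) passed the mean only through the cKO library. Another of the 5, Krt71 (10.9 FPKM in cKO and 1.48 FPKM in Het), is a keratin of the inner root sheath. It is kept in this list for every table. The part of these markers in the pigment cell gene levels was not tested either.

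In Shh-CreER TACs, 2 of the 9 genes stood far apart between the libraries and the other 7 did not reach 2-fold. Gpnmb had 27.8 FPKM in cKO and 322 FPKM in Het TACs, 11.6-fold lower in cKO. Dct had 15.8 FPKM in cKO and 82.9 FPKM in Het TACs, 5.25-fold lower in cKO. The other melanin enzymes differed less. Tyrp1 was at 2.18 FPKM in cKO and 2.01 FPKM in Het TACs, and Tyr, lower in cKO as Dct was, at 0.382 FPKM in cKO and 0.602 FPKM in Het TACs. Mitf was nearly level, at 1.77 FPKM in cKO and 1.88 FPKM in Het TACs. Again there was 1 library per genotype and no replicate check.

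Mlana was at 2.47 FPKM in cKO and 4.88 FPKM in Het TACs, a ratio just short of 2-fold lower. Ednrb was at 5.81 FPKM in cKO and 10.4 FPKM in Het TACs. Kit was the one receptor gene higher in cKO, at 44.2 FPKM against 35.2 FPKM in Het TACs. Sox10 was at 0.333 FPKM in cKO and 0.257 FPKM in Het TACs. In the Het library Gpnmb and Dct were the highest of the 9 and Kit the third, while in the cKO library Kit was the highest, before Gpnmb and Dct.

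On the log2(FPKM + 1) scale Gpnmb (-3.49) and Dct (-2.32) were at least 2-fold lower among 7 genes past the mean of 1 FPKM, which 2.77% of 12296 entries were, and none was higher, which 2.67% were. The median difference was -0.21 over all 9 genes, 2 of which lay below that mean, and 0.01 over the 12296 entries past it. Without a pseudocount the same count of 2 genes had a ratio of at most 0.5 (7.59% of 16584 entries) and none of at least 2 (7.24%). Tyrp1, at 0.08, changed sign under quantile normalization (-0.0063).

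Macrophages also express Gpnmb, and their markers were lower in the cKO TACs: 9 of 10 had a lower value, and the list summed to 353 FPKM in cKO and 620 FPKM in Het TACs, 1.76-fold lower in cKO. C1qa, a complement gene of macrophages, was at 66.1 FPKM in cKO and 134 FPKM in Het TACs. Mast cell markers were lower in 6 of 8 and summed to 11.02 FPKM in cKO and 20.1 FPKM in Het TACs, while Kit was not lower. Hair matrix and shaft markers were at least 2-fold lower in 6 of 9, as were 2.77% of all entries. They summed to 906 FPKM in cKO and 5571 FPKM in Het TACs, with Krt35, a keratin of the hair shaft, at 268 FPKM in cKO and 3092 FPKM in Het TACs. Schwann cell markers summed to 86.0 FPKM in cKO and 59.6 FPKM in Het TACs, led in difference by Ngfr (22.1 FPKM in cKO and 2.68 FPKM in Het), and endothelial markers to 61.1 FPKM in cKO and 45.4 FPKM in Het TACs. The part of these markers in the levels of Gpnmb and Dct was not tested.

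Of the melanosome list, 1 of 23 genes past the mean was at least 2-fold lower in cKO TACs and none higher (median over all 27 genes -0.10). The shares over all entries were 2.77% lower and 2.67% higher. The gene was Slc7a11, the cystine transporter used for yellow pigment, at 0.321 FPKM in cKO and 3.06 FPKM in Het TACs, which passed the mean only through the Het library. Pmel differed little, at 2.73 FPKM in cKO and 3.38 FPKM in Het TACs, as did Slc24a5, an ion exchanger of the melanosome, at 0.992 FPKM in cKO and 1.14 FPKM in Het TACs. The lineage factor Lef1, a Wnt effector that hair matrix cells also use, was at 51.6 FPKM in cKO and 87.0 FPKM in Het TACs.

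In K15-CrePGR TACs, the one table with 2 libraries per genotype, no pigment cell gene passed the test, and most of their spread came from sample KO 64. Tyrp1 was at 27.7 (KO 64) and 4.93 FPKM (KO 84) in KO TACs, against 3.33 (WT 52) and 3.29 FPKM (WT 57) in WT TACs. Both KO samples lay above both WT samples, but KO 84 was far closer to the WT samples than to KO 64. Tyr was at 5.21 (KO 64) and 0.846 FPKM (KO 84), against 0.423 (WT 52) and 0.342 FPKM (WT 57). Mlana was at 23.8 (KO 64) and 4.96 FPKM (KO 84), against 4.75 (WT 52) and 2.51 FPKM (WT 57). Ednrb was at 32.4 (KO 64) and 3.82 FPKM (KO 84), against 3.72 (WT 52) and 0.770 FPKM (WT 57). In Mlana and Ednrb the groups parted by little, since KO 84 stood just above WT 52.

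Dct and Mitf differed with less spread. Dct was at 38.2 (KO 64) and 22.3 FPKM (KO 84) in KO TACs, against 14.7 (WT 52) and 16.1 FPKM (WT 57) in WT TACs. Mitf was at 3.63 (KO 64) and 2.76 FPKM (KO 84), against 1.25 (WT 52) and 1.10 FPKM (WT 57). Here both KO samples stood clear of both WT samples. Gpnmb was at 138 (KO 64) and 22.7 FPKM (KO 84), against 72.8 (WT 52) and 81.0 FPKM (WT 57), so the KO samples lay on either side of the WT samples. Kit was at 10.9 (KO 64) and 3.56 FPKM (KO 84), against 7.50 (WT 52) and 11.5 FPKM (WT 57), and Sox10 at 0.760 (KO 64) and 0.132 FPKM (KO 84), against 0.136 (WT 52) and 0.0397 FPKM (WT 57). The groups overlapped in these 3 genes.

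The limma fit to log2(FPKM + 1) of 13565 named loci gave Dct a difference of 0.88 ± 0.29 (SE, n = 2 and 2; adjusted p = 0.255) and Mitf 0.94 ± 0.26 (adjusted p = 0.210). Ednrb had the largest estimate and the widest error, 2.13 ± 1.07 (limma adjusted p = 0.374). Tyrp1 (1.60), Mlana (1.44) and Tyr (1.29) had adjusted p between 0.367 and 0.390 in limma. Gpnmb had -0.44 ± 0.88 (limma adjusted p = 0.815), although its mean FPKM was slightly higher in KO (80.4 ± 81.7) than in WT TACs (76.9 ± 5.85, SD, n = 2 each), and Kit had -0.48 ± 0.53 (limma adjusted p = 0.649). Sox10 was below the mean of 1 FPKM and was not tested. Thus 0 of 8 genes were called by limma in either direction, as against 0.0369% of loci called higher and 0.0295% called lower. At an unadjusted p under 0.05, 2 of 8 (Dct and Mitf) were higher, as were 10.3% of loci, and none lower, as were 7.08%. Both KO samples lay above both WT samples in 6 of the 8 (26.8% of loci) and below in none (27.5% of loci), but Tyr, 1 of these 6, passed the mean only through KO 64.

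**Figure D3:**
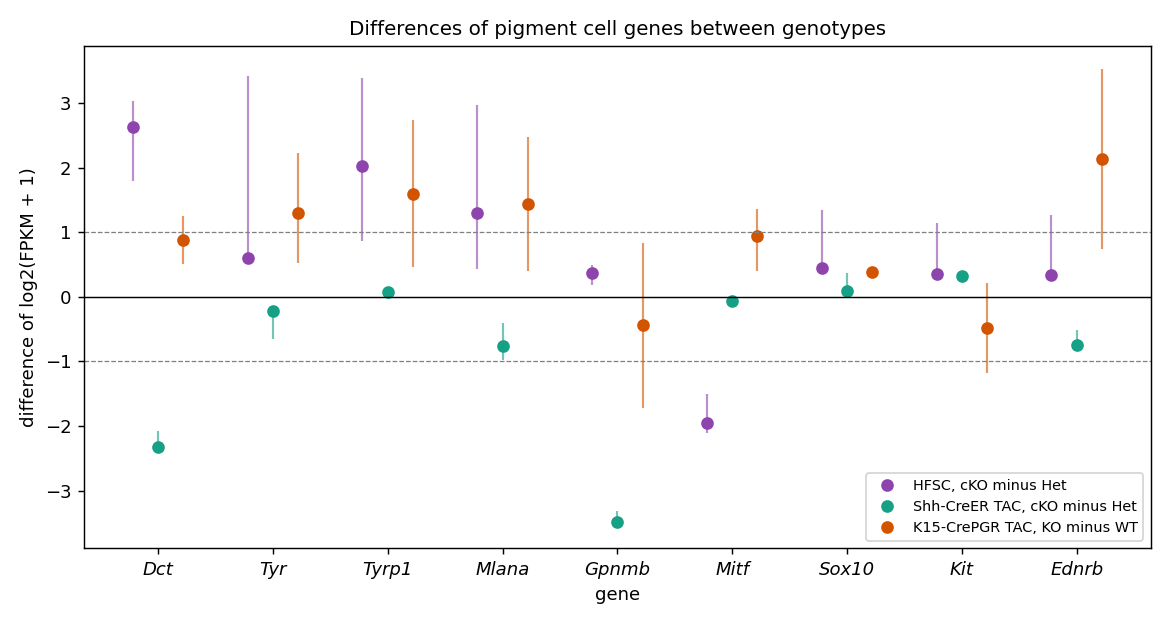
Differences of the 9 genes between genotypes. The y axis is the difference of log2(FPKM + 1), deleted minus control, points are the values as reported, vertical lines span the values under all alternative settings, and dashed lines mark 2-fold. Dct is at 2.63 in HFSCs, -2.32 in Shh-CreER TACs and 0.88 in K15-CrePGR TACs, Gpnmb at -3.49 in Shh-CreER TACs, and Mitf at -1.95 in HFSCs.

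KO 64 was the highest of the 4 libraries in 8 of the 9 genes, and at least 2-fold above each other library in Tyr, Tyrp1, Mlana, Sox10 and Ednrb. Sox10 was below the mean of 1 FPKM and Tyr passed it only through KO 64, so these counts support nothing beyond the values. Of the 13565 loci past that mean, 25.9% had their highest value in KO 64 and 6.63% were at least 2-fold above each other library there. Markers of several non-epithelial cell types were also highest in KO 64. All 9 macrophage markers with a row of their own were at least 2-fold above each other library there, and they summed to 728 (KO 64) and 113 FPKM (KO 84), against 81.2 (WT 52) and 23.6 FPKM (WT 57). The same held for all 7 endothelial markers, which summed to 37.9 (KO 64) and 4.74 FPKM (KO 84), against 3.79 (WT 52) and 1.79 FPKM (WT 57). Of these 7, 2 lay below the mean of 1 FPKM and the other 5 passed it only through KO 64. The pattern also held for 9 of 10 fibroblast and papilla markers, which summed to 1490 (KO 64) and 458 FPKM (KO 84), against 405 (WT 52) and 428 FPKM (WT 57). Among them, Sox18, Corin and Rspo3 passed that mean only through KO 64. Of the mast cell markers 7 of 8 were higher in both KO samples than in both WT samples. Among loci past the mean of 1 FPKM 26.8% were so, but only 4 of the 8 passed that mean. Cpa3, a mast cell protease gene, was at 13.5 (KO 64) and 5.82 FPKM (KO 84), against 1.36 (WT 52) and 0.841 FPKM (WT 57). The whole mast cell list summed to 59.0 (KO 64) and 27.1 FPKM (KO 84), against 7.96 (WT 52) and 4.63 FPKM (WT 57). Of 12 Schwann cell markers 9 were highest in KO 64, and the list summed to 63.6 (KO 64) and 51.8 FPKM (KO 84), against 47.9 (WT 52) and 32.4 FPKM (WT 57). Foxd3, a neural crest factor in that list, was listed at 0 outside KO 64. Hair matrix, shaft and keratinocyte markers did not follow KO 64. KO 64 was the highest library in 0 of 8 hair matrix and shaft markers and in 1 of 6 keratinocyte markers. Of 8 bulge markers, 4 were highest in KO 64, Tcf3 among them, and 2 were at least 2-fold above each other library there. The mean of 1 FPKM was not reached by 2 of these 8. Summed levels of both KO samples stood apart from those of both WT samples, hair matrix and shaft markers summing to 1552 (KO 64) and 1230 FPKM (KO 84), against 4666 (WT 52) and 4159 FPKM (WT 57). Bulge markers summed to 553 (KO 64) and 678 FPKM (KO 84), against 177 (WT 52) and 234 FPKM (WT 57). The part of any of these cells in the pigment cell gene levels was not tested.

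Without KO 64 the difference fell to 0.46 for Tyrp1, 0.41 for Mlana, 0.74 for Ednrb and 0.51 for Dct, while Mitf kept 0.79 and Gpnmb (-1.72) and Kit (-1.17) went further down. Without KO 84 Gpnmb (0.84) and Kit (0.21) turned positive, and Tyrp1 (2.73), Mlana (2.47), Tyr (2.17), Ednrb (3.53) and Dct (1.26) were larger. Tyr fell below the mean of 1 FPKM without KO 64 and has no value there, and Sox10 was not fitted. Among the fits that could be made, no member was called by limma with 1 library left out, the lowest adjusted p being 0.0720 for Tyr and Tyrp1 without KO 84.

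**Figure D4:**
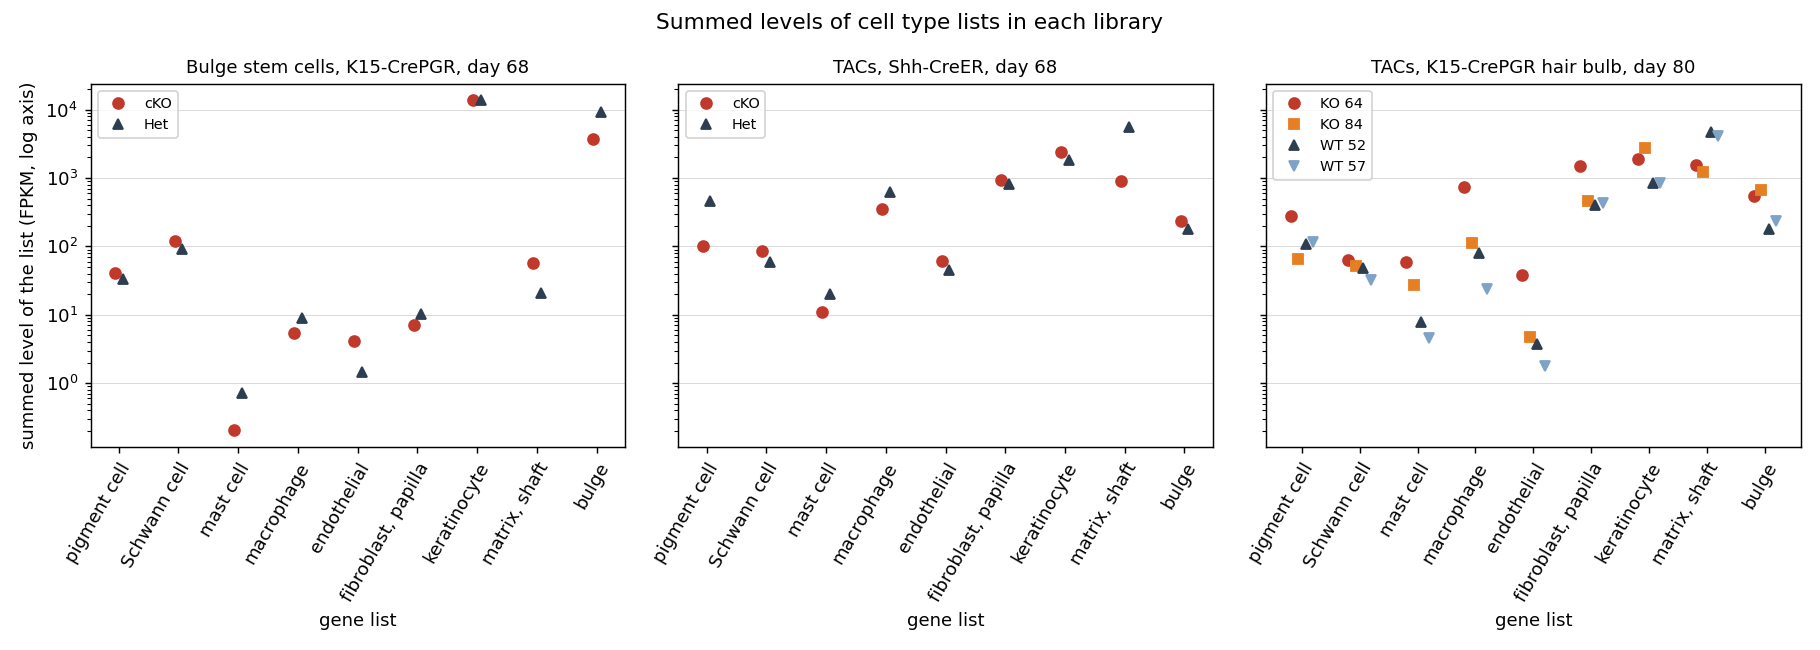
Summed levels of the pigment cell genes and of 8 cell type lists in each library. The y axis is the summed FPKM of a list on a log scale and each point is 1 library. In K15-CrePGR TACs KO 64 stands above the other samples in the pigment cell (281 FPKM), macrophage (728 FPKM), endothelial (37.9 FPKM) and fibroblast lists (1490 FPKM), while in the keratinocyte list KO 84 is highest (2783 FPKM).

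Of the melanosome list in K15-CrePGR TACs, 0 of 22 tested genes were called by limma. At an unadjusted limma p under 0.05, 1 was higher (10.3% of all loci) and 1 lower (7.08%). The median difference of all 26 genes with a row was 0.11, that of the 13565 loci past the mean being -0.03. Pmel followed the pattern of Tyrp1, at 21.995 (KO 64) and 3.87 FPKM (KO 84), against 3.19 (WT 52) and 2.23 FPKM (WT 57). Slc45a2, a transporter of the melanosome, was at 2.59 (KO 64) and 0.263 FPKM (KO 84), against 0.417 (WT 52) and 0.144 FPKM (WT 57), and Slc24a5 at 5.79 (KO 64) and 1.77 FPKM (KO 84), against 1.70 (WT 52) and 2.08 FPKM (WT 57). All 3 were highest in KO 64. Among lineage factors, Snai2 was higher in both KO samples (difference 1.43 ± 0.21, limma adjusted p = 0.111), and Lef1 lower (-0.62 ± 0.20, limma adjusted p = 0.255), neither passing the test.

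The ligands that act on the receptors of pigment cells were followed as a separate list of 14 genes. Edn2, which encodes an endothelin, was higher in the deleted libraries of every table. It was at 16.6 FPKM in cKO and 3.36 FPKM in Het HFSCs, and at 5.43 FPKM in cKO and 1.64 FPKM in Het Shh-CreER TACs. In K15-CrePGR TACs it was at 6.66 (KO 64) and 6.60 FPKM (KO 84), against 0.736 (WT 52) and 0.614 FPKM (WT 57), and KO 64 did not stand apart from KO 84 (difference 2.19 ± 0.21, limma adjusted p = 0.0866, not passing). Edn1, the best known endothelin, was at 5.02 FPKM in cKO and 1.18 FPKM in Het HFSCs, and at 2.51 FPKM in cKO and 1.49 FPKM in Het Shh-CreER TACs. In K15-CrePGR TACs Edn1 was at 4.73 (KO 64) and 6.04 FPKM (KO 84), against 2.96 (WT 52) and 1.44 FPKM (WT 57), with a difference of 1.03 ± 0.32 (limma adjusted p = 0.243). Ece1, the enzyme that releases active endothelins, was at 93.6 FPKM in cKO and 72.1 FPKM in Het HFSCs, and at 30.4 FPKM in cKO and 13.1 FPKM in Het Shh-CreER TACs. In K15-CrePGR TACs Ece1 was at 146 (KO 64) and 193 FPKM (KO 84), against 61.6 (WT 52) and 67.6 FPKM (WT 57), with a difference of 1.37 ± 0.20 (limma adjusted p = 0.111). All 3 genes stood higher in each deleted library than in the control libraries of its table, without a limma call. They are named for the size of their differences, so the shared direction is in part fixed by that choice. Kitl, Edn3, Pomc, Met, Mgrn1, Hgf and Corin of the same list did not share it. Atrn did share it, and Asip, Mc1r and Fgf2 had no row of their own in K15-CrePGR TACs.

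Kitl, the ligand of Kit, did not move one way. It was at 16.8 FPKM in cKO and 6.45 FPKM in Het HFSCs, but at 29.1 FPKM in cKO and 87.4 FPKM in Het Shh-CreER TACs. In K15-CrePGR TACs it was at 61.4 (KO 64) and 15.01 FPKM (KO 84), against 32.2 (WT 52) and 27.8 FPKM (WT 57), on either side of the WT samples as Gpnmb was. Of the other ligand genes, Edn3, the endothelin best known in melanocyte development, lay between a listed 0 and 1.26 FPKM over the 8 libraries. Mc1r, the melanocortin receptor of melanocytes, lay between 0.0299 and 0.280 FPKM in the 4 libraries where it had a row. Over the whole list, 3 of 7 genes past the mean were at least 2-fold higher in cKO HFSCs (5.92% of all entries) and none lower (4.6%). In cKO Shh-CreER TACs 2 of 8 were higher (2.67%) and 1 lower (2.77%). In K15-CrePGR TACs 0 of 8 were called by limma, and 3 were higher at an unadjusted p under 0.05 (10.3% of loci), of which Edn2 passed the mean only through the KO samples. The list medians, over members above and below the mean alike, were 0.08, 0.14 and 0.28 in the order of these tables.

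**Figure D5:**
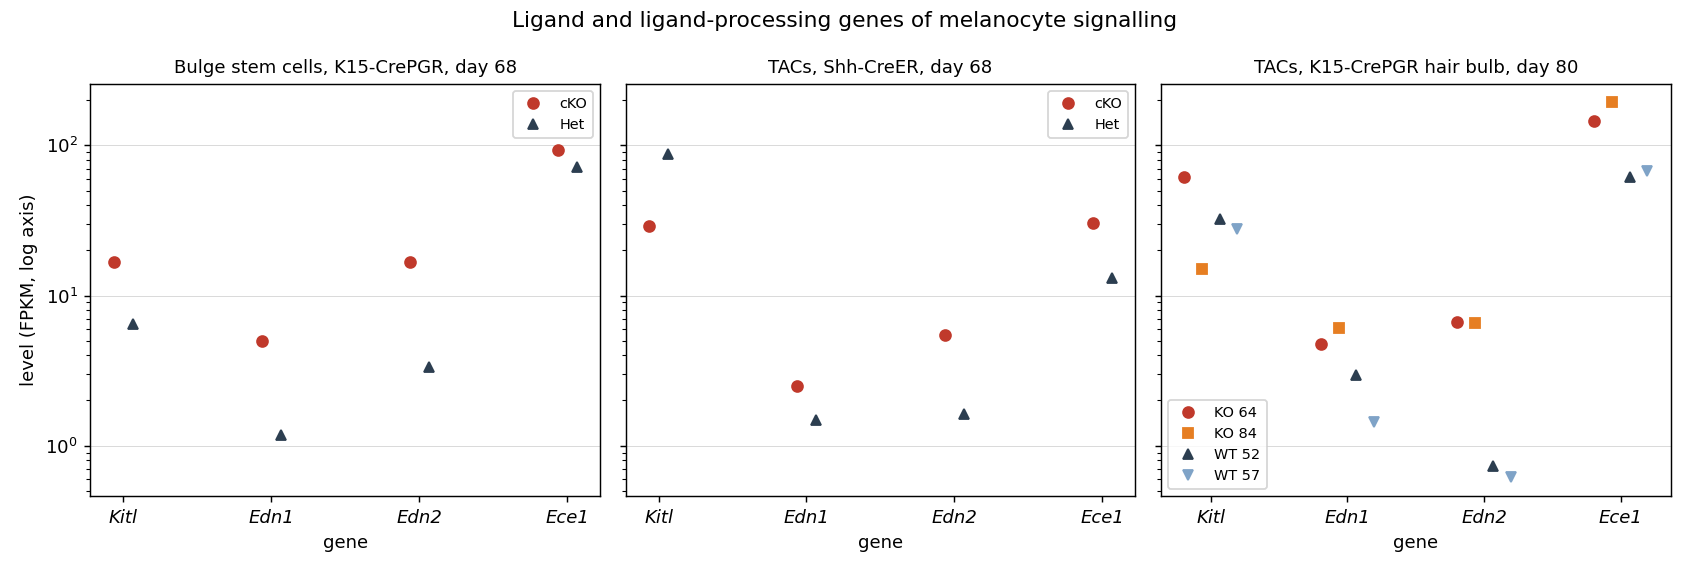
Levels of Kitl, Edn1, Edn2 and Ece1 in every library. The y axis is FPKM on a log scale, each point is 1 library, and panels are the separately normalized tables. Edn1, Edn2 and Ece1 lie higher in every deleted library than in the control libraries of the same panel, and Kitl lies higher in cKO HFSCs (16.8 FPKM) and lower in cKO Shh-CreER TACs (29.1 FPKM).

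The 9 genes did not keep fixed proportions to each other. The ratio of Dct to Tyrp1 within a library, which does not depend on how libraries were scaled, was 4.20 in cKO and 5.36 in Het HFSCs. It was 7.25 in cKO and 41.3 in Het Shh-CreER TACs, and 1.38 (KO 64) and 4.52 (KO 84), against 4.42 (WT 52) and 4.88 (WT 57), in K15-CrePGR TACs. Het Shh-CreER TACs and KO 64 thus stood at opposite ends, and the other 6 libraries lay between 4.20 and 7.25. The ratio of Gpnmb to Tyrp1 was 12.8 in cKO and 161 in Het Shh-CreER TACs, and 4.99 (KO 64) and 4.60 (KO 84), against 21.9 (WT 52) and 24.6 (WT 57), in K15-CrePGR TACs. In both TAC tables it was lower in the deleted libraries, and KO 64 and KO 84 were close together. In HFSCs it was 0.726 in cKO and 5.40 in Het. These ratios were chosen after the levels were seen and were not tested.

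The genes whose pattern over the 8 libraries was most like that of Dct were sought among 10007 genes whose mean FPKM was 1 or more in each table, by the root-mean-square difference of log2(FPKM + 1) centred within each table. The nearest were Npy (0.31), Fam20a (0.37), Pmepa1 (0.39), Gpr153 (0.40) and Ehd3 (0.40), none of them in the lists of pigment cell genes. Npy, which encodes a neuropeptide, was at 2.82 FPKM in cKO and listed at 0 in Het HFSCs, and at 0.852 FPKM in cKO and 7.36 FPKM in Het Shh-CreER TACs. In K15-CrePGR TACs Npy was at 2.99 (KO 64) and 2.87 FPKM (KO 84), against 0.448 (WT 52) and 0.512 FPKM (WT 57). The nearest to Mitf were Cdkn1c (0.06), Myoc (0.16), Dbp (0.18), Cdsn (0.19) and Cacnb1 (0.22). Cdkn1c, an inhibitor of the cell cycle, was at 1.90 FPKM in cKO and 8.81 FPKM in Het HFSCs, and at 3.29 FPKM in cKO and 3.63 FPKM in Het Shh-CreER TACs. In K15-CrePGR TACs it was at 5.08 (KO 64) and 4.09 FPKM (KO 84), against 1.82 (WT 52) and 1.87 FPKM (WT 57). Some of these genes passed the mean of 1 FPKM only through the libraries where they were high. That was so for Npy in each table and for Fam20a in HFSCs. In K15-CrePGR TACs it was so for Ehd3, Myoc, Cdsn and Cacnb1. The filter thus favours such patterns, and closeness over 8 libraries describes these libraries only.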

How the data were processed

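RNA of 8 libraries was measured as FPKM, which the authors deposited in 3 tables with 1 column per library, per the file headers. TopHat and Cufflinks with mm9 were used, per the submitters' processing notes; the sources used here do not give versions or further scaling. Columns were matched to samples by name. Loci without a name stayed out. In K15-CrePGR TACs they held 78.4% (WT 52) to 79.0% (KO 64) of the summed FPKM of a library. HFSC and Shh-CreER TAC data had no such loci. A repeated symbol was represented by its highest entry by mean, and rows that join several genes stayed out of gene lists. The members, the 11 other lists, the tests and the alternatives were chosen with earlier results of these data known.

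Differences were taken on log2(FPKM + 1), which understates the change of low genes. HFSC and Shh-CreER tables have 1 library per group and no test; a difference of 2-fold was counted where the mean FPKM was 1 or more. The K15-CrePGR TAC table was fitted over all loci with a name and a mean FPKM of 1 or more, using limma 3.58.1 in R 4.3.3 (empirical Bayes with trend, two-sided, Benjamini-Hochberg, threshold 0.05), and the procedure was tested on simulated data. The labels do not say that its samples are separate animals, so p-values measure the spread between samples only. Depth was not stated; it was estimated from the steps of low values and GENCODE vM21 transcript lengths over 1000 bases, as the read number that made most values whole (58.8% to 61.1% came within 0.05 of a whole read, so depths are approximate). An exact 0 can be a failed estimate and is given as listed at 0. Named beside the 9 genes are up to 3 genes of each list and table with the largest difference and 5 genes most like Dct and Mitf, and some low or related genes chosen after their values were seen. Python 3.11.15, numpy 2.4.6, pandas 2.3.3 and matplotlib 3.10.9 were used.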

Additional observations from a re-analysis of the deposited data

Results flagged for a closer look

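The differences of some pigment cell genes had opposite signs in 2 deletions, and at least 1 of the 2 differences was 2-fold or more. In K15-CrePGR TACs the KO and WT samples also had to lie apart. In HFSCs and Shh-CreER TACs, with 1 library per genotype, no gene can overlap, so this condition selects nothing there. None of these contrasts between tables was tested. Values are differences of log2(FPKM + 1), deleted minus control.

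Between HFSCs and Shh-CreER TACs, Dct was at 2.63 in HFSCs and -2.32 in TACs, 4.95 apart. Mlana was at 1.30 in HFSCs and -0.76 in TACs, 2.06 apart. Gpnmb was at 0.37 in HFSCs and -3.49 in TACs, 3.86 apart. Between HFSCs and K15-CrePGR TACs, Mitf was at -1.95 in HFSCs and 0.94 in TACs, a gap of -2.89. Between the TAC deletions, Shh-CreER minus K15-CrePGR, the gap was -3.20 for Dct (-2.32 and 0.88), -1.51 for Tyr (-0.21 and 1.29), -2.20 for Mlana (-0.76 and 1.44) and -2.88 for Ednrb (-0.74 and 2.13). The TAC tables also differ in Cre driver and in age (day 68 and day 80), which cannot be told apart from the deletion, and the K15-CrePGR values rest largely on KO 64 for Tyr, Mlana and Ednrb.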

How the results depend on the processing

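Of the single-gene differences of the 9 genes, 187 of 196 values under alternatives kept their sign and their side of the threshold. Tyrp1 in Shh-CreER TACs turned to -0.0063 with quantile normalization. In HFSCs a pseudocount of 5 took Tyrp1 (0.87) and Mlana (0.44) below 2-fold, and the ratio without a pseudocount took Tyr, Kit, Sox10 and Ednrb past it. Leaving out 1 library in turn gave ranges in K15-CrePGR TACs of -1.17 to 0.21 for Kit and -1.72 to 0.84 for Gpnmb. The number of pigment cell genes called higher in HFSCs was 3 as reported, 1 with a pseudocount of 5 and 1 where the mean FPKM had to be 5 or more, and 7 by the ratio without a pseudocount.

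Counts over all features moved with the scale. In HFSCs, 302 were higher and 278 lower with a pseudocount of 5, 436 higher with a minimum mean of 5 FPKM, and 2046 higher and 1675 lower without a pseudocount. In Shh-CreER TACs, 527 were higher with a pseudocount of 0.1, 119 higher and 173 lower with 5, 198 higher with a minimum mean of 5 FPKM, and 1200 higher and 1258 lower without a pseudocount. In K15-CrePGR TACs the counts called by limma were 13 higher and 8 lower with a pseudocount of 0.1, 3 higher with 5, 2 higher with no filter, 9 higher with a minimum mean of 5 FPKM and 3 higher without the trend. Leaving out 1 library in turn gave 0 to 18 higher and 0 to 7 lower. The cause was not tested. Median scaling moved the median of all loci from -0.03 to -0.10. No paired analysis was possible because the groups share no replicate numbers that pair samples. With 2 libraries or 1 per genotype, differences under the spread of the samples cannot be seen.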
